A study of Triticum aestivum with 9 samples.

Results

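C2H2 zinc finger and heat shock factor (HSF) genes of wheat are described here across 9 leaf libraries. The study predicted transcription factors from protein domains with the iTAK program among genes it had found to differ between treatments in these same libraries. Of the 457 genes in that prediction, 20 carried the family name C2H2 and 14 the name HSF, and these 34 genes of the 130542 in the expression table are the members. Because differences between the treatments chose them, every contrast below is a description of the members and not a test of them, and no P-value is given for a member.

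The leaves came from seedlings of bread wheat (Triticum aestivum), cultivar Yunong211, after 2 days of treatment. The DTT+TUDCA group (T) received 7.5 mM dithiothreitol together with 25 ug per mL tauroursodeoxycholic acid, the DTT group (D) received 7.5 mM DTT alone, and the control group (C) received neither agent, with 3 independent biological replicates in each. DTT keeps disulfide bonds from forming and so hinders protein folding in the endoplasmic reticulum (ER), and TUDCA is a bile acid derivative that acts as a chemical chaperone. No group received TUDCA alone, so the T vs. D contrast describes TUDCA only in the presence of DTT.

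HSFs are transcription factors that bind heat shock elements in promoters and activate genes of heat shock proteins when unfolded proteins accumulate, as is known from yeast, animals and plants. Plant HSFs form classes, of which some activate transcription and others lack an activation domain. The class of the 14 wheat members was not annotated. C2H2 zinc finger proteins hold a zinc ion with paired cysteines and histidines. In Arabidopsis, several stress-induced C2H2 proteins carry a repression motif and act in responses to drought, salt and reactive oxygen.

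Values are FPKM, in which the fragments of a gene are divided by transcript length and by the library's mapped fragments, so levels can be set side by side between genes. Fold changes are log2 differences of FPKM scaled between libraries with 0.1 added, with their standard error (SE), from 1 limma model over the 78030 genes whose mean reached 0.1 FPKM. Adding 0.1 makes the fold changes of low genes too small. A gene is called when its unadjusted P-value is under 0.01 and its log2 fold change is at least 1 in either direction, the thresholds of the study. All 34 members passed the filter on low values. Whole fragments could be recovered from the FPKM values, at 16334906 to 26760247 per library, and 6 HSF and 4 C2H2 members had 0 fragments in all 3 controls. These 10 members passed the filter through treated libraries alone, so a difference from the controls was built in. For them a fold is given as a lower bound, computed against a floor of 3 fragments over the 3 control libraries, and bounds and intervals cover counting error only. In bulk leaves, fewer cells of a type and less RNA per cell cannot be told apart.

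The libraries were leaf libraries by their photosystem II oxygen-evolving complex genes, of which 20 to 22 of 23 lay above 1 FPKM in every library. The summed FPKM of these genes was 5187 to 5996 in T, 5003 to 5065 in D and 9158 to 11357 in C. The study listed them among genes that differed in D vs. C, so this group difference was built in. DTT+TUDCA replicate 2 stood apart: 2186 of 55137 genes were more than 4-fold away from the mean of the remaining libraries in its group, against 146 to 330 in each of the other 8 libraries. Across all genes tested, 1.1% were called in either direction in T vs. D, 7.87% in T vs. C, and 8.02% in D vs. C.

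HSF members were low in control leaves and higher in both treated groups. Their FPKM summed over the 14 genes was 45.8, 40.4 and 31.5 in the T libraries, 59.6, 34.9 and 76.8 in the D libraries and 6.83, 7.34 and 10.8 in the C libraries. Every treated library thus lay above every control library in the family's total, while the T and D libraries overlapped. A mean of at least 1 FPKM was reached by 7 of 14 HSF genes in T, 9 in D and 1 in C. That 1 gene, TRAES3BF005500020CFD_g on chromosome 3B, held 43.3% of the family's summed FPKM in T, 52.7% in D and 69.4% in C.

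**Figure D1:**
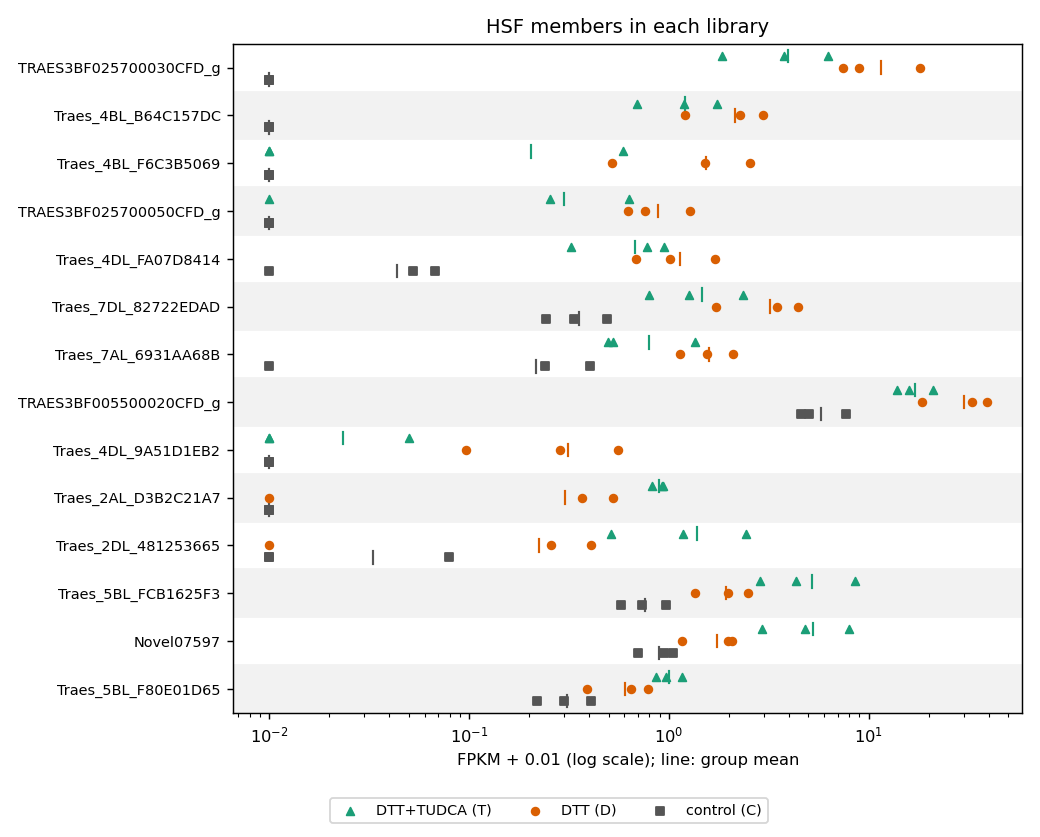
FPKM plus 0.01 on a log axis for the 14 HSF members, with 3 libraries each of DTT+TUDCA (triangles), DTT (circles) and control (squares), a vertical line at each group's mean, and points at the left edge for libraries with 0 fragments. TRAES3BF025700030CFD_g has 0 fragments in the 3 controls and lies at 1.83 to 6.23 FPKM in T and 7.47 to 18.1 FPKM in D.

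TRAES3BF005500020CFD_g was the most abundant HSF in every group, with 21.1, 13.9 and 15.9 FPKM in T, 33.0, 18.5 and 38.9 FPKM in D and 4.6, 5.02 and 7.69 FPKM in C. Its log2 fold change was 1.37 (SE 0.29) for T over C and 2.09 (SE 0.29) for D over C. Both treated groups lay wholly above the controls. The T vs. D value of -0.72 (SE 0.29) was not called, and the highest T library lay above the lowest D library.

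The largest contrast of any member was in TRAES3BF025700030CFD_g, also on 3B. It was at 6.23, 1.83 and 3.78 FPKM in T, at 8.98, 7.47 and 18.1 FPKM in D and at 0 in all 3 controls. The 599 fragments of the D libraries put its D level at least 179-fold above C, and the 181 fragments of the T libraries put its T level at least 64.1-fold above C. All 3 T libraries lay below all 3 D libraries, with a log2 fold change of -1.51 (SE 0.44) in T vs. D, which was called in 5 of the 9 fits that left out 1 library and not without DTT replicate 1 or 3 or DTT+TUDCA replicate 2 or 3. TRAES3BF025700050CFD_g, whose identifier places it near on 3B, followed a like order at a lower level. It had 0.623, 0.244 and 0 FPKM in T, 0.614, 0.75 and 1.26 FPKM in D and 0 in the 3 controls, and its D level was at least 11.6-fold above C. Its T and D libraries overlapped.

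Group 4 long arms carried 4 HSF genes, each with 0 to 4 fragments in the controls together. Traes_4BL_B64C157DC was at 1.74, 1.18 and 0.68 FPKM in T, 2.26, 1.19 and 2.94 FPKM in D and 0 in C, with T at least 36.1-fold and D at least 61.2-fold above C. Traes_4DL_FA07D8414 averaged 0.671 ± 0.320 FPKM in T, 1.13 ± 0.522 FPKM in D and 0.0336 ± 0.0301 FPKM in C (SD, n = 3 each). In both of these genes the T libraries overlapped the D libraries. The other 2 were detected mainly in D. Traes_4BL_F6C3B5069 had 0, 0 and 0.583 FPKM in T, 2.55, 0.51 and 1.5 FPKM in D and 0 in C, from 2 fragments in T and 20 in D. Traes_4DL_9A51D1EB2, which the study's gene ontology list also places under rRNA processing, had 1 fragment in T, 24 in D and 0 in C. The T to D ratio by counting was 0.119 (95% interval 0.0135 to 0.489) in Traes_4BL_F6C3B5069 and 0.0495 (0.0012 to 0.303) in Traes_4DL_9A51D1EB2.

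The HSF genes on the group 7 long arms had the same order of group means, D above T above C. Traes_7AL_6931AA68B averaged 0.786 ± 0.491 FPKM in T, 1.58 ± 0.479 FPKM in D and 0.208 ± 0.198 FPKM in C, and Traes_7DL_82722EDAD averaged 1.46 ± 0.794 FPKM in T, 3.20 ± 1.37 FPKM in D and 0.347 ± 0.125 FPKM in C (SD, n = 3 each). In each gene all D libraries lay above all C libraries, while T and D overlapped. Wheat carries related copies of most genes on the A, B and D chromosomes of a group, so reads may be shared between such copies, and how reads with several matches were counted is not given in the sources used here.

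The remaining 5 HSF genes, on the group 2 long arms and chromosome 5B, had their highest levels in T. Novel07597, a transcript the study added to the annotation (chromosome 5B, 196756581 to 196758107, minus strand, genome build not named), was at 4.77, 8.01 and 2.93 FPKM in T, 1.98, 1.15 and 2.05 FPKM in D and 0.688, 0.933 and 1.04 FPKM in C. The T libraries lay above all others, and D overlapped C. The log2 fold change of T over D was 1.52 (SE 0.38), with 1.14 when DTT+TUDCA replicate 2 was left out. The call was kept in 8 of 9 fits with 1 library left out and ended without DTT replicate 2, at 1.26.

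Traes_5BL_FCB1625F3 had nearly the same profile, with 4.31, 8.49 and 2.85 FPKM in T, 2.49, 1.35 and 1.96 FPKM in D and 0.954, 0.566 and 0.722 FPKM in C. Here the 3 groups did not overlap. Without DTT+TUDCA replicate 2, the T vs. D log2 fold change was 0.89 in place of 1.34 (SE 0.40), and the call was kept in 3 of 9 such fits, those without control replicate 1, DTT replicate 1 or DTT+TUDCA replicate 3. The study's gene ontology list places this gene, named HSF from its domain, among genes of the oxygen-evolving complex of photosystem II. Of the other 23 genes on that list, 4 were higher and 19 lower in T than in C, beside 48.8% of all genes tested higher. In D against C, 4 were also higher and 19 lower, beside 49.1%. The study drew that list from genes it had called in D vs. C in these libraries, so nothing is read from these counts.

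Traes_5BL_F80E01D65 was at 0.962, 0.857 and 1.16 FPKM in T, 0.776, 0.379 and 0.636 FPKM in D and 0.209, 0.289 and 0.397 FPKM in C. It had the smallest D vs. C log2 fold change of the family, 0.59 (SE 0.33), against 1.32 (SE 0.33) in T vs. C. Traes_2DL_481253665 was at 0.502, 2.43 and 1.17 FPKM in T, 0.247, 0 and 0.399 FPKM in D and 0, 0.0691 and 0 FPKM in C, from 56 fragments in T, 11 in D and 1 in C. Its call in T vs. D, at 2.27 (SE 0.68), was kept in 2 of 9 fits, without DTT replicate 3 or DTT+TUDCA replicate 1. Traes_2AL_D3B2C21A7 had 18 fragments in T, 7 in D and 0 in C, at 0.92, 0.927 and 0.814 FPKM in T and 0.518, 0 and 0.359 FPKM in D. In all 5 genes the T libraries lay above the D libraries, and in both group 2 genes DTT replicate 2 had 0 fragments.

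In D vs. C, 14 of 14 HSF members had a log2 fold change above 0, beside 49.1% of all genes tested, and 9 were called up, beside 4.27%. The 3 D libraries lay above the 3 C libraries in 10 members, beside 16.6% of all genes. In T vs. C, 14 were above 0 (48.8% of all genes), 10 were called up (4.36%) and 11 had all T libraries above all C libraries (15.3%). The members' median log2 fold change was 2.30 for D over C and 1.86 for T over C by the model. It was 2.60 and 2.12 with the 7 members of 3 or fewer control fragments at their counted value or bound. For T over C, Traes_4BL_F6C3B5069 and Traes_4DL_9A51D1EB2 kept their fitted value, since their T fragments were also 3 or fewer. Over all genes tested the medians were -0.01 and -0.02. The members were chosen with these contrasts, so nothing is read from the counts beside the background.

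In T vs. D the family split by chromosome, with 5 members above 0 (2AL, 2DL and 5B) and 9 below 0 (3B, 4BL, 4DL, 7AL and 7DL), where 47.9% of all genes tested were above 0. Of these, 3 were called up, beside 0.632% of all genes tested, and 3 down, beside 0.466%. The 3 T libraries lay above the 3 D libraries in 5 members (5.56% of all genes) and below them in 2 (5.05%). The calls depended on single libraries: their number was 1 without DTT+TUDCA replicate 2, 2 without DTT replicate 3, 3 without control replicate 2, control replicate 3, DTT replicate 1 or DTT+TUDCA replicate 3, and 4 without control replicate 1, DTT replicate 2 or DTT+TUDCA replicate 1. At a Benjamini-Hochberg adjusted P-value under 0.05, limma called 0 of 14 members in T vs. D, and limma-voom on the recovered fragments also called 0. An unadjusted limma P-value under 0.05 was found for 10 of 14, beside 5793 of the 78030 genes tested. As in the contrasts with C, nothing is read from these counts. The 5 to 9 split of directions was the same in every alternative fit that tested all 14 members, and was 5 to 8 without DTT replicate 1 or DTT replicate 3, where Traes_4DL_9A51D1EB2 fell under the filter.

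**Figure D2:**
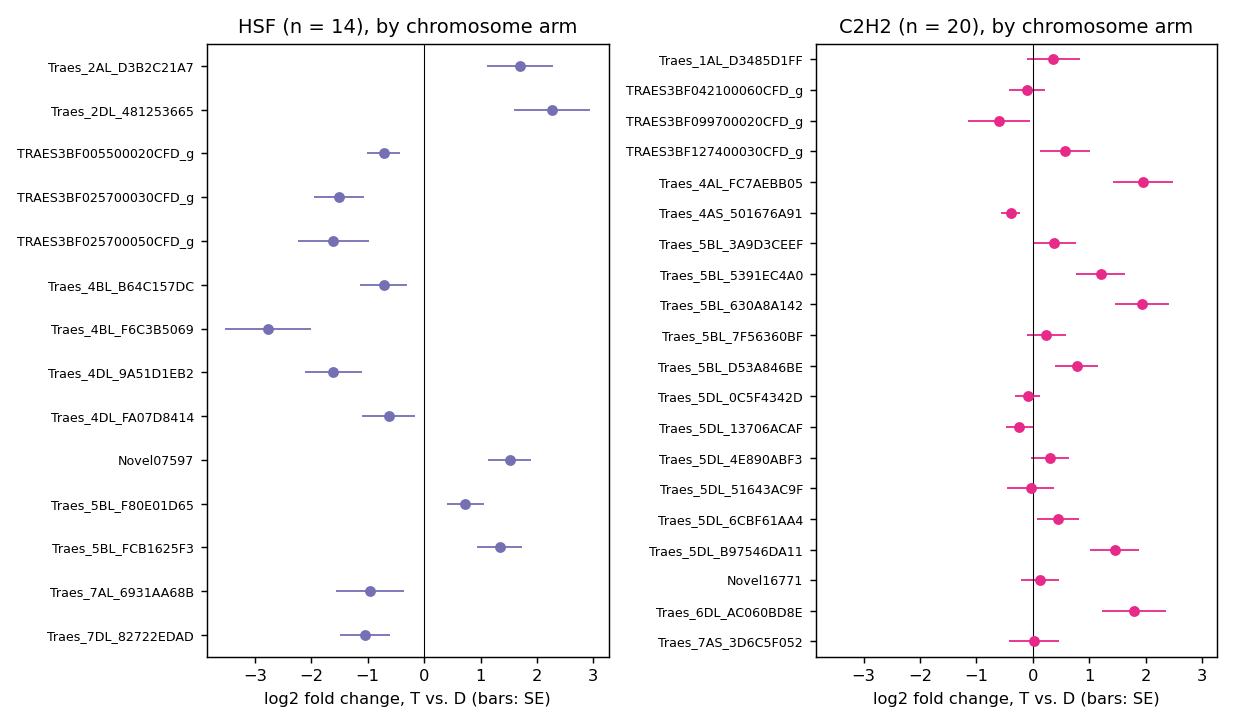
T vs. D log2 fold change with its standard error for each HSF member (left) and each C2H2 member (right), ordered by chromosome arm, with a line at 0. HSF genes on 2AL, 2DL and 5B (including 5BL) lie above 0 and those on 3B, 4BL, 4DL, 7AL and 7DL below 0. The C2H2 values run between -0.60 and 1.96. All C2H2 genes on 5BL lie above 0, and those on 3B and 5DL have both signs.

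DTT replicate 2 stood apart from the other DTT libraries in the HSF genes. It was the lowest of the 3 DTT libraries in 13 of 14 HSF members, against 12 of 20 C2H2 members and 30.9% of all genes tested. DTT replicate 3 was the highest in 10 of 14. Without DTT replicate 2, the HSF median was -1.06 for T over D, against -0.72 with it, and 2.57 for D over C, against 2.30. Without it, 4 HSF members were called down and 0 up in T vs. D, against 3 and 3 with it. What set this library apart in HSF genes was not tested.

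C2H2 members were of mixed direction against the controls, with 14 higher and 6 lower in D. Summed over 20 genes, FPKM was 50.7, 46.4 and 47.3 in T, 49.4, 37.8 and 43.6 in D and 28.4, 29.5 and 32.3 in C. In these unscaled sums all treated libraries lay above all controls. Scaling factors were lower in C (0.8613 to 0.9480) than in D and T (0.9987 to 1.0958), so scaling narrows this gap. A mean of at least 1 FPKM was reached by 12 C2H2 genes in T, 10 in D and 7 in C.

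**Figure D3:**
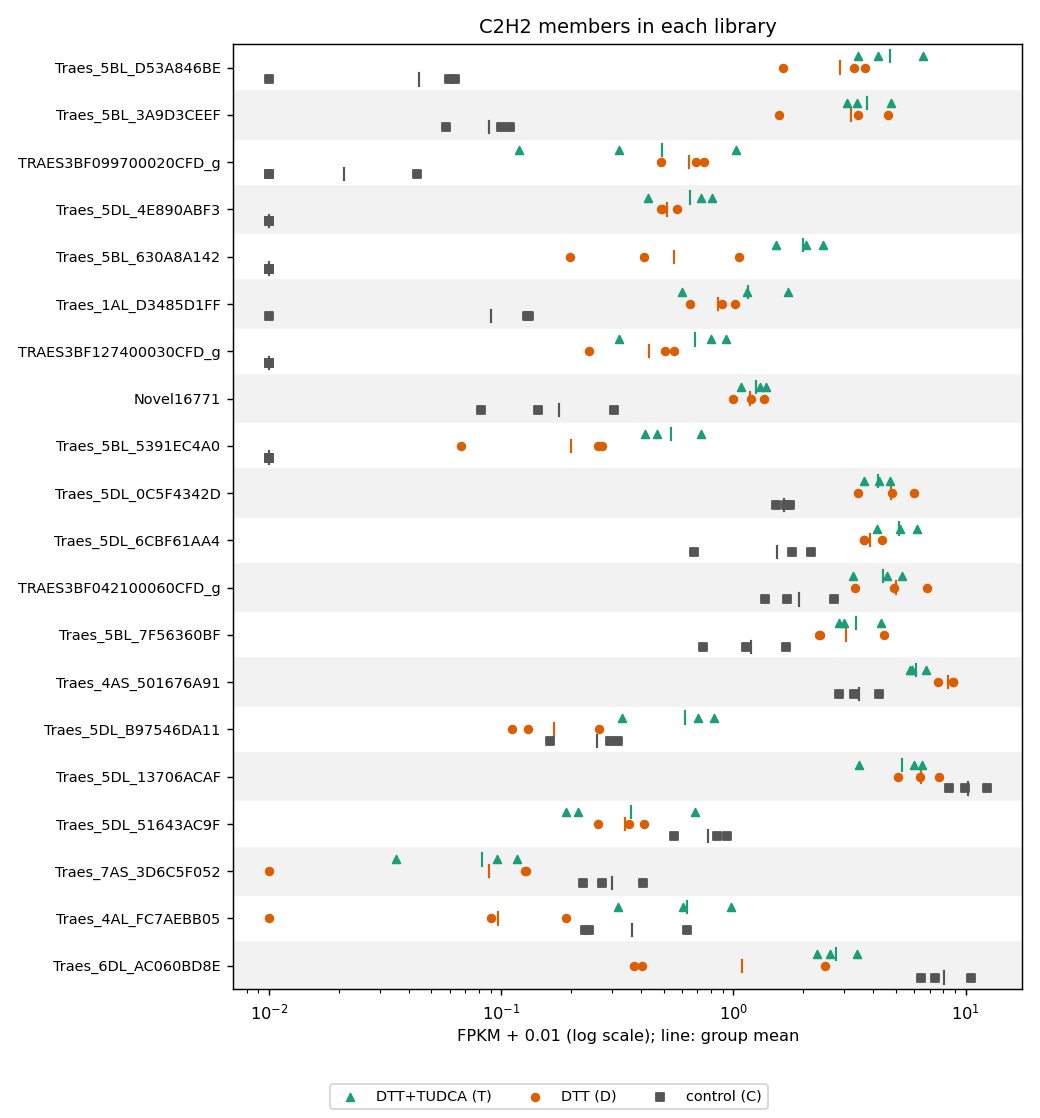
FPKM plus 0.01 on a log axis for the 20 C2H2 members, drawn with 3 libraries each of DTT+TUDCA (triangles), DTT (circles) and control (squares), a vertical line at each group's mean, and points at the left edge for libraries with 0 fragments. Genes run from Traes_5BL_D53A846BE, with the largest D vs. C log2 fold change of 4.26, down to Traes_6DL_AC060BD8E, with the smallest of -3.49.

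Traes_5BL_D53A846BE and Traes_5BL_3A9D3CEEF were nearly silent in controls and reached several FPKM in treated leaves. Traes_5BL_D53A846BE was at 6.54, 3.42 and 4.2 FPKM in T, 3.67, 1.63 and 3.3 FPKM in D and 0.0496, 0.0533 and 0 FPKM in C. With 2 fragments in the controls, the counted ratio to C was 141 (95% interval 38.6 to 1170) for T and 81.9 (22.3 to 681) for D. Traes_5BL_3A9D3CEEF was at 4.76, 3.08 and 3.41 FPKM in T, 4.61, 1.56 and 3.42 FPKM in D and 0.0896, 0.0481 and 0.0991 FPKM in C, with a log2 fold change of 4.30 (SE 0.38) in T vs. C and 3.92 (SE 0.38) in D vs. C. In both genes each treated library lay far above each control, and DTT replicate 2 was the lowest treated library.

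Traes_5BL_630A8A142 was the C2H2 gene with the clearest further step in T. It was at 2.43, 2.04 and 1.51 FPKM in T, 0.4, 0.188 and 1.05 FPKM in D and 0 in C, with T at least 32.9-fold and D at least 8.95-fold above C. The T vs. D log2 fold change was 1.94 (SE 0.48), called in 8 of 9 fits with 1 library left out and not without DTT+TUDCA replicate 1, at 1.80. Every T library lay above every D library.

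Further genes absent or nearly absent from control libraries were Traes_5DL_4E890ABF3, TRAES3BF127400030CFD_g, Traes_5BL_5391EC4A0 and TRAES3BF099700020CFD_g. Traes_5DL_4E890ABF3 was at 0.798, 0.417 and 0.714 FPKM in T, 0.481, 0.48 and 0.564 FPKM in D and 0 in C, with T at least 13.8-fold and D at least 10.4-fold above C. TRAES3BF099700020CFD_g was at 1.02, 0.312 and 0.109 FPKM in T, 0.74, 0.479 and 0.683 FPKM in D and 0, 0 and 0.0334 FPKM in C. The T libraries of this gene spread more widely than its D libraries and overlapped them.

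Other C2H2 genes were present in controls and higher in treated leaves. Traes_4AS_501676A91, which the study's gene ontology list places under receptor kinase activity, was at 5.86, 5.74 and 6.73 FPKM in T, 8.81, 7.56 and 8.79 FPKM in D and 3.29, 2.85 and 4.21 FPKM in C. Its 3 groups were separate, with T between D and C. Traes_5BL_7F56360BF, the member described in the table as Zinc finger protein 1, was at 2.83, 4.3 and 2.98 FPKM in T, 4.42, 2.33 and 2.36 FPKM in D and 0.726, 1.12 and 1.68 FPKM in C. Its treated libraries lay above the controls and overlapped each other. Of the members with a fold near the limit, Traes_4AS_501676A91 was called in D vs. C at a log2 fold change of 1.03 (SE 0.17), whereas Traes_5BL_7F56360BF at 1.07 (SE 0.35) was not. Traes_5DL_0C5F4342D, Traes_5DL_6CBF61AA4, TRAES3BF042100060CFD_g, Traes_1AL_D3485D1FF and Novel16771, an added transcript on a scaffold of 6BS (3617 to 4484, plus strand), had D vs. C log2 fold changes between 1.11 and 2.30, with all D libraries above all C libraries.

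The C2H2 genes below their controls included the most abundant one of untreated leaves. Traes_5DL_13706ACAF was at 6.48, 3.47 and 5.97 FPKM in T, 5.11, 7.69 and 6.36 FPKM in D and 12.3, 8.45 and 9.91 FPKM in C. It held 34% of the family's summed FPKM in C and was called down in T vs. C, at -1.15 (SE 0.24). Traes_6DL_AC060BD8E was at 2.29, 3.39 and 2.59 FPKM in T, 0.392, 2.48 and 0.362 FPKM in D and 6.42, 10.5 and 7.37 FPKM in C, with a log2 fold change of -3.49 (SE 0.57) in D vs. C. All its treated libraries lay below the controls, and DTT replicate 2 lay with the T libraries rather than with the other DTT libraries.

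Another pair of C2H2 genes had a mean in D below both other groups and, unlike Traes_6DL_AC060BD8E, a mean in T above C. Traes_4AL_FC7AEBB05 was at 0.596, 0.964 and 0.308 FPKM in T, 0, 0.0807 and 0.181 FPKM in D and 0.229, 0.219 and 0.62 FPKM in C, with a T vs. D log2 fold change of 1.96 (SE 0.53). Its D libraries lay below all others, and T overlapped C. Traes_5DL_B97546DA11 averaged 0.610 ± 0.257 FPKM in T, 0.159 ± 0.0840 FPKM in D and 0.248 ± 0.0843 FPKM in C (SD, n = 3 each), with 1.45 (SE 0.43) in T vs. D. With 1 library left out, the call of Traes_4AL_FC7AEBB05 in T vs. D was kept in 5 of 9 fits and ended without DTT replicate 1 or 2 or DTT+TUDCA replicate 1 or 2. That of Traes_5DL_B97546DA11 was kept in 3 of 9, without control replicate 1, DTT replicate 1 or DTT+TUDCA replicate 3.

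The limma model called no contrast for Traes_5DL_51643AC9F and Traes_7AS_3D6C5F052, which the study's list holds. On the recovered fragments limma-voom called both in D vs. C, at a log2 fold change of -1.42 for Traes_5DL_51643AC9F and -2.64 for Traes_7AS_3D6C5F052, and limma called Traes_5DL_51643AC9F in that contrast without DTT+TUDCA replicate 1. Traes_5DL_51643AC9F was at 0.67, 0.205 and 0.18 FPKM in T, 0.402, 0.252 and 0.344 FPKM in D and 0.925, 0.545 and 0.836 FPKM in C. Traes_7AS_3D6C5F052 was at 0.0862, 0.0253 and 0.107 FPKM in T, 0, 0.117 and 0.118 FPKM in D and 0.398, 0.214 and 0.261 FPKM in C. In scaled values, the treated libraries of both genes lay below their controls.

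In D vs. C, 14 of 20 C2H2 members were above 0 (49.1% of all genes tested) and 6 below, with 12 called up and 1 down, beside 4.27% and 3.75% of all genes. All D libraries lay above all C libraries in 14 members and below them in 5, beside 16.6% and 17.2% of all genes. In T vs. C, 16 members were above 0 (48.8% of all genes) and 4 below, with 12 called up and 1 down, beside 4.36% and 3.5%, and the libraries were apart upward in 14 and downward in 4, beside 15.3% and 15.7%. In T vs. D, 14 were above 0 (47.9% of all genes) and 6 below, with 3 called up, beside 0.632% of all genes, and 0 down. All T libraries lay above all D libraries in 5 C2H2 members and below them in 1, beside 5.56% and 5.05% of all genes. The family's median log2 fold change was 0.33 for T over D, 1.47 for T over C and 1.2 for D over C. With P-values adjusted by Benjamini-Hochberg, limma and limma-voom each called 0 of 20 in T vs. D. There, 6 of 20 had an unadjusted limma P-value under 0.05, beside 5793 of the 78030 genes tested. Calls in T vs. D numbered 0 when DTT+TUDCA replicate 1 was left out, 1 when DTT+TUDCA replicate 2 was, and 2 or 3 for each other library. As with HSF, the rule used these contrasts and nothing is read from these counts.

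**Figure D4:**
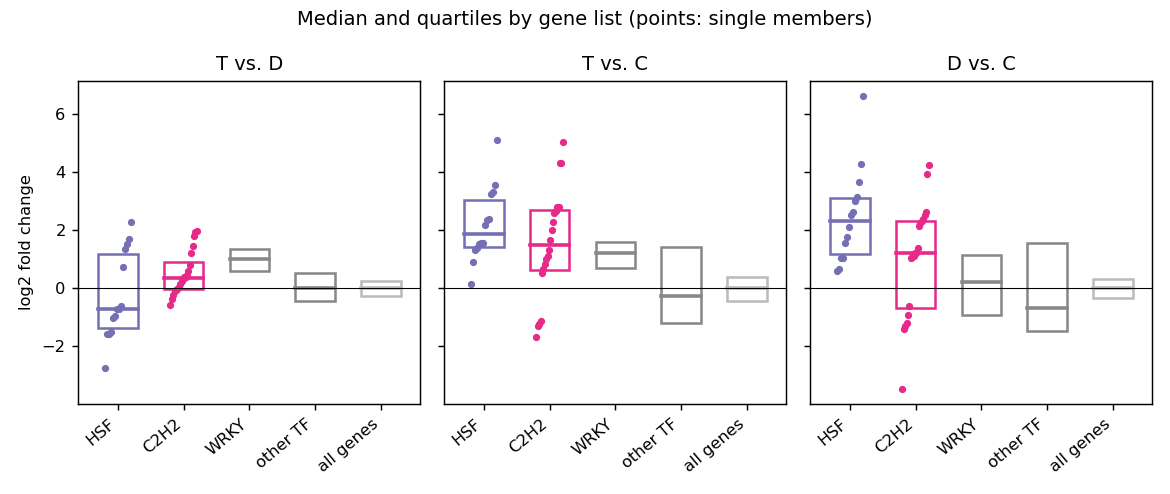
Median (thick line) and quartiles (box) of the log2 fold change in T vs. D, T vs. C and D vs. C for the 14 HSF and 20 C2H2 members (points: single genes), 18 WRKY genes, the 416 tested genes of the other predicted transcription factors, and all 78030 genes tested. The HSF median is -0.72 in T vs. D and 2.30 in D vs. C, and the C2H2 median is 0.33 in T vs. D and 1.2 in D vs. C.

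The chromosome arms in the identifiers, which the choice of members did not use, were spread differently in the families. Among C2H2 members, 11 of 20 (55%) lay on the group 5 long arms, 5 on 5BL, 6 on 5DL and 0 on 5AL. The share on these arms was 14.3% of HSF members, 11.1% of the other predicted transcription factors and 9.79% of all genes tested. Transcripts placed on a chromosome without an arm, such as the HSF member Novel07597 on 5B, were not counted on these arms. Members on 1 arm may be copies of one another, and no sequence comparison was made. The arms of all C2H2 or HSF genes of wheat were not counted, so nothing about the treatments is read from these shares. The group 5 C2H2 genes were not uniform: Traes_5BL_D53A846BE and Traes_5BL_3A9D3CEEF had the 2 largest D vs. C changes of the family, whereas Traes_5DL_13706ACAF, Traes_5DL_51643AC9F and Traes_5DL_B97546DA11 were below 0.

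Set beside the families, the other 423 predicted transcription factors, of which 416 passed the filter, had a median log2 fold change of -0.01 in T vs. D and -0.71 in D vs. C. In D vs. C, 195 of the 416 were higher and 221 lower, beside 49.1% of all genes tested higher. Of the 416, 151 were called up and 166 down, beside 4.27% and 3.75% of all genes. The 18 WRKY genes, members of another stress-responsive plant family, had a median of 1 in T vs. D and 0.22 in D vs. C. In T vs. D, 6 of them were called up, beside 0.632% of all genes. All of these lists were selected on the same libraries, so nothing is read from their counts.

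A set of 22 chaperone and cochaperone genes was taken from the study's list of ER protein processing genes. It held Hsp70, Hsp40, nucleotide exchange factors and small HSP20 proteins, the last of which the study labels sHSF although they are chaperones. Hsp70 and HSP20 genes are the classes best known as HSF targets. The study annotates the Hsp40 genes as DnaJ homolog subfamily C member 3 and most exchange factors as SIL1 or hypoxia up-regulated 1. Whether any of the 22 is a target of the HSF members was not tested. In T vs. D, 18 of 22 were higher, beside 47.9% of all genes tested, with a median of 0.66. Of the 22, 1 was called up, beside 0.632% of all genes. The 3 T libraries lay above the 3 D libraries in 6 of the 22, beside 5.56% of all genes. By class, the median was 0.3 for HSP20, 0.66 for Hsp40 and 0.73 for exchange factors. No values with a library left out are given for these genes. D vs. C was the contrast on which the study chose this list. There, 18 of 22 were higher, beside 49.1% of all genes tested, with a median of 1.25. Of the 22, 11 were called up and 3 down, beside 4.27% and 3.75% of all genes tested. Nothing is read from these counts. The 3 called down, Traes_2BS_72656E777, Traes_2DS_EBEF8CBBB and Traes_6AS_27DE86D331, were HSP20 genes. The most abundant Hsp70 gene of the list, Traes_4AS_B978C93FA, averaged 41.0 ± 22.1 FPKM in T, 15.5 ± 1.60 FPKM in D and 4.70 ± 1.86 FPKM in C (SD, n = 3 each), and the most abundant HSF gene, TRAES3BF005500020CFD_g, averaged 17.0 ± 3.71 FPKM in T, 30.1 ± 10.5 FPKM in D and 5.77 ± 1.67 FPKM in C. The mean of this Hsp70 gene was thus highest in T and that of this HSF gene highest in D. Neither gene was called in T vs. D. The log2 fold change there was 1.29 (SE 0.45) for the Hsp70 gene and -0.72 (SE 0.29) for the HSF gene. The Hsp70 genes were divided in T vs. D, with 2 of 5 higher and 3 lower and a median of -0.41. The 3 lower ones, Traes_4BL_8C0E579F8, Traes_4DL_7B7B7B0A8 and Traes_4AS_894CED0DA, had their highest mean in D, as this HSF gene did.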

How the data were processed

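Total RNA from 9 seedling leaf samples (3 groups, 3 replicates each) was sequenced as 150 bp paired-end reads. Per the labels, Bowtie2 2.2.3, TopHat2 2.0.12 and HTSeq 0.6.1 were used, and the authors deposited FPKM values for 130542 genes, including 18046 transcripts they added. The genome release is not given in the sources used here. Columns of the authors' own comparisons were not used.

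FPKM values were scaled by the median ratio over 54436 genes with a mean of at least 1 FPKM (factors 0.8613 to 1.0958), filtered at a mean of 0.1 and tested as log2(FPKM + 0.1) with limma 3.58.1 in R 4.3.3, 1 model for all groups. Printed FPKM values are unscaled, and groups were judged to overlap on scaled values. Whole fragments were recovered for 100% of genes above 0 (tolerance 0.05 fragments), and limma-voom on these called 826 genes for T over D, 6232 for T over C and 6563 for D over C. Scripts were tested on simulated data.

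Libraries with the same replicate number deviated together in T and C (correlations 0.16, 0.18 and 0.12), but not in D and C (-0.05, 0 and -0.05) or T and D (0.04, 0.04 and -0.17). The only ground for a pairing is this check. It did not compare libraries with unlike numbers, so it does not establish a pairing.

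Library values were given for the members with the 4 highest and 4 lowest D vs. C changes, the 2 highest means and the 2 largest T vs. D changes of each family, for members with no call, for neighbouring identifiers on 3B and for members with a conflicting or specific annotation. The members and lists were chosen with earlier results of these data known. Alternatives were pseudocounts of 0.01 and 1, a minimum of 1 FPKM or none, unscaled FPKM, a replicate block, 2 groups per fit, adjusted P-values, limma-voom and leaving out each library.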

Additional observations from a re-analysis of the deposited data

How the results depend on the processing

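No called value of a member in D vs. C or T vs. D changed sign under any alternative. The check did not cover T vs. C or genes outside both families. Counts are given in the order D over C, T over C, T over D, where C2H2 had 13, 13 and 3 calls, HSF 9, 10 and 6, and all genes 6255, 6138 and 857. With a pseudocount of 1, C2H2 had 3, 6 and 0 calls, HSF 6, 6 and 3, and all genes 3728, 3402 and 363. With a pseudocount of 0.01, HSF had 2 calls in T vs. D. The HSF median log2 fold change for D over C was 0.9 with a pseudocount of 1 and 3.66 with 0.01, against 2.3 in the main fit. At a minimum mean of 1 FPKM, which kept 9 C2H2 and 6 HSF members, C2H2 had 6, 6 and 0 calls and HSF 4, 6 and 3, with 456 genes in T vs. D. By adjusted P-value, T vs. D had 0 C2H2 calls, 0 HSF calls and 1 call among all genes (5793 genes at an unadjusted P-value under 0.05). Fitting only T and D left 1 HSF call in T vs. D. The cause of these changes was not tested, apart from the fewer genes kept at 1 FPKM.

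With the replicate block, HSF had 3 calls in T vs. D and C2H2 14 in T vs. C. Libraries with the same replicate number are not known to share more than the number. The block moved no other family count by more than 1.5 times. Leaving out each library in turn gave 10 to 14, 11 to 15 and 0 to 3 calls in C2H2 and 7 to 10, 8 to 10 and 1 to 4 in HSF. Over all genes, T vs. D ranged from 609 calls without DTT+TUDCA replicate 2 to 2182 without DTT+TUDCA replicate 1.

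Without scaling, 4905 genes were called up and 1890 down in D vs. C, against 3328 and 2927 with it, and the median of all genes shifted by 0.23 for D over C, 0.17 for T over C and -0.05 for T over D. Directions of the C2H2 and HSF members did not change in number with it. Members under about 1 FPKM rest on few fragments: their fold changes move with the pseudocount, and 3 replicates per group limit every T vs. D call.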
